A study of Mus musculus with 28 samples.

Results

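The 295 regions described here are broad stretches of acetylated chromatin that lie away from gene starts and hold no Brg1-bound region in mouse embryonic stem cell (ESC)-derived mesoderm at day 4. They were chosen by the control H3K27ac lists and the FLAG lists themselves. H3K27ac regions of the 2 control replicates were joined wherever they had 1 bp or more in common, and a joined region was kept if both replicates contributed to it, which gave 27332 regions. Of these, 13914 lay over 2.5 kb from every annotated transcriptional start site (TSS) and are called distal, and 469 of the distal regions were at least 3000 bp wide. The 295 regions are those of the 469 that overlapped no Brg1-bound region, defined as a merged FLAG region present in at least 2 of 3 replicates. The other 174 overlapped one.

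Enhancers are stretches of DNA that bind transcription factors and raise transcription of a gene that may lie far away. Nucleosomes at active enhancers and promoters carry acetylation on lysine 27 of histone H3 (H3K27ac), whereas the Polycomb complex PRC2, of which Suz12 is a core subunit, methylates the same lysine (H3K27me3) at silent developmental genes. Brg1 is the ATPase of BAF complexes, which move and evict nucleosomes and are found at many enhancers. Very wide acetylated regions, often termed stretch or super-enhancers, tend to lie at genes that are strongly transcribed or that specify the identity of a cell.

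All cultures were labelled Brg1f/f; Actin-CreER. In ESCs of this genotype both copies of Brg1 are floxed, and a Cre recombinase that responds to hormone is made at all times. ESCs were grown as embryoid bodies in serum-free medium until day 2, then reaggregated for 40 h with VEGF, Activin A and BMP4 and collected at day 4. From day 2, cultures received 200 nM 4-hydroxytamoxifen (4-OHT), which activates the recombinase and deletes Brg1, or the solvent tetrahydrofuran (THF) alone as control. ChIP-seq was done for H3K27ac and Suz12 in 2 control and 2 4-OHT replicates, for H3K27me3 in 3 and 3, and for FLAG in 3 replicates at normal Brg1 level, described by the labels as biological duplicates and triplicates.

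Several features limit these groups as a model. Brg1 protein declines gradually after the recombinase is activated, so 4-OHT cultures pass through part of mesoderm induction with falling Brg1, and both groups carry the recombinase. The labels give the FLAG samples the same floxed genotype as the others, whereas the study describes a separate line with FLAG-tagged Brg1. The study also gives FLAG as done in duplicate where the labels give triplicate. All 3 lists were used as labelled. Cultures are mixtures of cells, so fewer acetylated cells and narrower acetylation in each cell cannot be told apart.

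Each deposited list gives the position of enriched regions in 1 replicate without a score or a read count, so depth is unknown, and the measurement used here is the number of bases of a region that a list covers. The H3K27ac lists held 37590 and 41062 regions covering 28.0 and 30.8 Mb in control replicates 1 and 2, and 36000 and 32161 regions covering 28.5 and 26.1 Mb in 4-OHT replicates 1 and 2. FLAG replicates 1 and 2 listed 8021 and 8257 regions, while FLAG replicate 3 listed 192. The absence of Brg1 in a region therefore rests almost entirely on the lists of FLAG replicates 1 and 2, and leaving out either left few regions to call bound: 437 broad distal regions counted as unbound without replicate 1 and 444 without replicate 2. Without control replicate 2, 184 regions met the rule.

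Of 14 nascent mesoderm markers, 12 had H3K27ac within 2.5 kb of a TSS in both control replicates, among them T and Eomes, T-box factors of the primitive streak, and Mesp1, an early regulator of cardiac mesoderm. Kdr, the VEGF receptor of haemato-vascular mesoderm, and Cdx1, a posterior homeobox factor, did not. Acetylation was present in both controls at 4 of 9 markers of undifferentiated pluripotent cells, 4 of 7 of definitive endoderm, 4 of 7 of extraembryonic endoderm and trophoblast, 2 of 8 of blood and endothelium, 1 of 7 of neuroectoderm and 1 of 8 of cardiomyocytes. Over all protein-coding genes the share was 47.6%. The median H3K27ac at these promoters was 2137 and 2741 bp in control and 1962 and 2537 in 4-OHT for nascent mesoderm markers, and 375 and 0 bp in control and 1275 and 325 in 4-OHT for pluripotent cell markers. The ranges overlapped in both lists, and whether the cell mixture differed between the groups was not tested. The part of other cell types in the results below was not tested.

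The 295 regions together spanned 1.18 Mb. Their median width was 3650 bp, 182 were under 4000 bp, 75 were from 4000 to under 5000 bp, and 38 were 5000 bp or wider, up to 10175 bp. Those that just met the width of 3000 bp lay in Lin9, which encodes a subunit of the MuvB cell cycle complex, in Dnajc18, and nearest to Twist1, a mesenchymal bHLH factor, Sall1, a zinc finger factor of kidney and limb, and 5830454E08Rik. They covered 91.7%, 81.7%, 86.1%, 97.5% and 106% as many bases in 4-OHT as in control. On the other side of the threshold, 12 unbound regions were 2975 bp wide. Among these were regions nearest to Nanog, a core pluripotency factor (86.0%), Eomes (59.4%) and Bcl11b, a zinc finger factor of T cells and neurons (5.63%), one within Cdh11, a cadherin of mesenchymal cells (40.4%), and one nearest to the lens crystallin gene Cryaa that neither 4-OHT list covered. At the other 7 the shares ran from 58.4 to 101%, and 4 of them were 88.5% or more. The widths on either side of the threshold differ by 1 step of the 25 bp grid on which all regions were called.

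Most of the acetylated length of these regions was also listed after Brg1 deletion. Control replicates 1 and 2 covered 1041950 and 1129325 bp of them, and 4-OHT replicates 1 and 2 covered 851350 and 911800 bp. The control mean was 1.09 Mb ± 0.0618 (SD, n = 2), or 92.1% of the span. That of 4-OHT was 0.882 Mb ± 0.0427 (SD, n = 2), or 74.8%. Relative to the control mean the 4-OHT replicates stood at 0.784 and 0.840, a mean ratio of 0.812 ± 0.0394. These regions had to be present and wide in control and had no such condition in 4-OHT, so the lower 4-OHT total is a description of how they were chosen as well as of the cultures, and it was not tested.

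Region by region, 4-OHT replicate 1 listed acetylation in 95.9% of the 295 and replicate 2 in 98.6%, and 2 regions (0.678%) were in no 4-OHT list, beside 33.1% of all distal regions. In 135 regions each 4-OHT value was smaller than each control value (45.8%), beside 60.1% of all distal regions, and in 13 each was larger (4.41%), beside 2.91%. In the other 147 (49.8%) the ranges met or overlapped. The rule used the control values, so nothing is read from these shares. Counts moved with the libraries: without 4-OHT replicate 2 the number in no 4-OHT list was 12, without 4-OHT replicate 1 it was 4, and among the regions chosen without control replicate 2 it was 0. Without FLAG replicate 1 or 2 the number with both 4-OHT values below control was 220 of 437 (50.3%) or 225 of 444 (50.7%), so the count moved mainly with the size of the set.

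The share of control bases that 4-OHT covered ran from 0 to 142% with quartiles of 59.5%, 92.1% and 100%. For 148 regions it was between 90 and 110%, for 36 between 75 and 90%, for 42 between 50 and 75%, for 38 between 25 and 50%, for 21 under 25% (13 of them under 10%), and for 10 it was 110% or more. Shares near 100% were thus the most common. Median shares were 89.1% for regions under 4000 bp, 97.0% for those from 4000 to under 5000 bp and 93.7% for wider ones.

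The widest region, at chr15:77628026-77638200, lay within Myh9, the heavy chain of non-muscle myosin IIA, touching exons and 5.46 kb from the nearest TSS of the gene. Control replicates covered 10025 and 10100 of its 10175 bp, and 4-OHT replicates covered 9975 and 10025. No FLAG replicate listed a region in it. The next widest, 8175 bp at chr3:95465426-95473600, began in the last part of Mcl1, an anti-apoptotic member of the Bcl2 family, and ran past its end, with 8100 and 7900 bp covered in control and 8175 bp in each 4-OHT replicate. Both regions were listed at almost their whole width in all 4 libraries.

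Several further wide regions had 4-OHT values close to control. In an intron of Ppp4r4, a regulatory subunit of protein phosphatase 4, 7050 and 7700 bp were covered in control and 6725 and 7650 in 4-OHT. In Zfhx3, a large homeodomain and zinc finger factor, the values were 7050 and 7300 bp in control and 7150 and 6750 in 4-OHT, and in Gatad2a, a subunit of the NuRD remodelling and deacetylase complex, 6825 and 6475 in control and 6600 and 6700 in 4-OHT. The ranges of the groups overlapped at each of these 3 regions. They did not at a second, intergenic region assigned to Ppp4r4, chr12:104748601-104753025, singled out after its values were seen, where 3250 and 4425 bp were covered in control and 1725 and 1650 in 4-OHT (44.0%).

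Coverage was lower in both 4-OHT replicates at other wide regions. At Slc9a3r1, which encodes a scaffold of membrane transporters, 6550 and 6775 bp were covered in control and 5675 and 6200 in 4-OHT, and at Fam113b 6800 and 6250 in control and 6000 and 6125 in 4-OHT. The promoter of Fam113b, 124 kb away, had no H3K27ac in either control and was covered by H3K27me3 over 900, 1300 and 1550 bp in control and 475, 1225 and 1025 in 4-OHT. The region with the lowest share among the 10 widest lay in an intron of Rftn1, which encodes the lipid raft protein raftlin, at chr17:50204776-50211250, where control replicates covered 4450 and 6475 bp and 4-OHT replicates 2325 and 4025. A second region of Rftn1, at chr17:50225251-50228625, had 2400 and 3375 bp in control and 1550 and 2575 in 4-OHT. At this second region the ranges of the groups overlapped.

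The 2 regions that neither 4-OHT list covered were both intergenic. One, at chr17:45363451-45367050, had 3075 and 3600 bp covered in control and lay 204 kb from the TSS of its nearest protein-coding gene, Cdc5l, a component of the spliceosome. The other, at chr6:91608001-91611075, lay 23.0 kb from the TSS of Slc6a6, the taurine transporter, and had 1025 bp covered in control replicate 1, in 4 pieces, and 3025 bp in replicate 2. An intronic region of the same gene, at chr6:91659551-91664300, had 4675 and 4750 bp in control and 4750 and 4525 in 4-OHT. Acetylated regions linked to a single gene therefore included one that was absent from the 4-OHT lists and one that was covered at nearly its full width.

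Of the regions that a 4-OHT list did cover, the lowest share was 0.293%, at chr8:27914126-27919000, an intergenic region 169 kb from the zinc finger gene Zfp703. It had 3650 and 4875 bp covered in control, none in 4-OHT replicate 1 and 25 bp in replicate 2. Next came regions near Dysf, the membrane repair protein dysferlin, with 1900 and 3200 bp in control and 0 and 25 in 4-OHT, and in introns of Sipa1l1, a GTPase-activating protein, with 1900 and 3150 bp in control and 25 and 0 in 4-OHT. At each of these the remaining 4-OHT coverage was a single 25 bp step of the grid. Introns of Dclk1, a doublecortin-like kinase, and Adck1, a predicted kinase, held the next lowest, with 2425 and 4025 bp in control against 50 and 0 in 4-OHT, and 3250 and 4425 against 0 and 175. At Dysf, Sipa1l1 and Dclk1 control replicate 1 covered under 2500 bp and control replicate 2 over 3000 bp, so the wider call of 1 library made these regions broad.

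The highest share was 142%, in an intron of Gab1, an adaptor of receptor tyrosine kinases, at chr8:83375251-83378300, where control replicates covered 3050 and 1100 bp and 4-OHT replicates 3050 and 2825. Ctsb, the lysosomal protease cathepsin B, had 4050 and 1500 bp in control and 4050 and 3400 in 4-OHT (134%). Arhgef18, a guanine nucleotide exchange factor, had 3625 and 2500 bp in control and 3625 and 3575 in 4-OHT (118%). At all 3 the 4-OHT values did not exceed control replicate 1, and control replicate 2 alone was lower. The same held for a region at chr8:124866051-124869550 inside the gene model Gm20388, a transcript annotated across several other genes, with 3500 and 1800 bp in control and 3475 and 3125 in 4-OHT (125%). None of these 4 was among the 13 regions with both 4-OHT values above both controls, which included Mcl1, the widest region of Trim71 and the region of 3000 bp near 5830454E08Rik.

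The 295 regions were linked to 260 protein-coding genes, by the gene whose body they overlapped or else by the nearest TSS, and 29 genes had more than 1, with 64 regions between them. Trim71, an RNA-binding ubiquitin ligase of early embryonic cells that is repressed by let-7 microRNAs, had 4, all in its introns between chr9:114445501 and 114468625. The widest of them, 6900 bp, had 6675 and 6650 bp covered in control and 6900 in each 4-OHT replicate. Its neighbours had 3525 and 3175 bp in control and 3575 in each 4-OHT replicate, 2950 and 3025 bp in control and 2700 and 2675 in 4-OHT, and 3500 and 4075 bp in control and 3850 and 3500 in 4-OHT. Of the 4 regions, 4-OHT thus covered more than control in 2, less in 1 and an overlapping range in 1.

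Genes with 3 regions included Gatad2a, Msi2 and Gm20388. At Gatad2a the shares were 100%, 107% and 114%. At Msi2, which encodes an RNA-binding protein of stem and progenitor cells, regions 3.67 and 52.1 kb from the TSS had 97.3% and 102%, whereas the one 33.6 kb from it had 47.0%, with 2200 and 4125 bp in control and 900 and 2075 in 4-OHT. The 3 intronic regions assigned to Gm20388 had shares of 10.0%, 125% and 88.9%.

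Lists of genes that fit this differentiation held few of the regions. Of 33 mesoderm and primitive streak transcription factors, 3 (9.09%) were linked to one, beside 1.16% of all 22380 protein-coding genes. Gata6, a zinc finger factor of endoderm and cardiac mesoderm, had 2825 and 3850 bp covered in control and 2550 and 3825 in 4-OHT. A region near Snai1, a Snail factor of epithelial to mesenchymal transition, had 3600 and 4525 bp in control and 1450 and 3075 in 4-OHT. At Snai1 each 4-OHT value was smaller than each control value, and at Gata6 the ranges overlapped.

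Among 39 genes of the TGF-beta, NODAL and BMP pathway, 2 had regions, and these had some of the lower shares. Smad1, the BMP-responsive transducer, had 1525 and 4350 bp in control and 25 and 2400 in 4-OHT (41.3%). In Pmepa1, a feedback inhibitor of TGF-beta signalling, regions at chr2:173081776-173085575 and chr2:173072201-173075675 had 3075 and 3800 bp in control against 1325 and 1500 in 4-OHT, and 2350 and 3475 against 1275 and 1300. Both Pmepa1 regions were lower in both 4-OHT replicates, while at Smad1 the replicates of each group differed too much to separate the groups.

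The WNT list of 36 genes also had 2, Znrf3, a ubiquitin ligase that removes WNT receptors, with 3600 and 4525 bp in control and 2575 and 2875 in 4-OHT, and Tcf7l1, a repressive TCF factor, with 3500 and 3725 against 3000 in each 4-OHT replicate. Of 39 genes of FGF, VEGF and PDGF signalling, Fgfr1, an FGF receptor, had 4450 and 4325 bp in control and 4225 and 4300 in 4-OHT, and Etv5, an ETS factor induced by FGF, had regions with 3325 and 4700 against 2825 and 3625 bp and with 3625 and 3450 against 3100 and 2775. All of these except the wider Etv5 region were lower in both 4-OHT replicates, and at Fgfr1 the closest values of the groups were 1 step of the grid apart. Of 18 NOTCH and segmentation genes, Hes1, a bHLH repressor, was linked to 1 region with 2850 and 3150 bp in control and 2300 and 2850 in 4-OHT.

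Cell adhesion, matrix and mesenchymal transition genes numbered 37, of which 4 had a region. The region in Cdh11, at chr8:105230551-105235650, had the lowest share of any in these lists (32.5%), with 3450 and 5100 bp in control and 1225 and 1550 in 4-OHT. The region near Has2, a hyaluronan synthase needed for cardiac jelly, lay in the antisense transcript Has2as and had 3875 and 3925 bp in control and 3625 and 3900 in 4-OHT. Twist1 had 2400 and 3000 bp in control and 1775 and 2875 in 4-OHT. The median share of the list, which also holds Snai1, was 70.9%, beside 92.1% for all 295 regions.

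Pluripotency and early epiblast genes had 4 of 29, with 8 regions and a median share of 97.0%, and chromatin regulators 4 of 30, with 5 regions and a median of 99.4%. Tet1, which oxidises methylated cytosine, had 4025 and 3875 bp in control and 3900 and 3950 in 4-OHT. Dnmt3b, a de novo DNA methyltransferase, had 2350 and 2650 bp in control and 2025 and 975 in 4-OHT. Myc, a growth-promoting bHLH factor, had a region at its 3' end with 2650 and 3750 bp in control and 1650 and 2100 in 4-OHT, and another 103 kb away, in the non-coding gene Pvt1, with 3675 and 3650 in control and 3550 in each 4-OHT replicate. Arid1a, itself a subunit of BAF complexes, held an intronic region with 3700 and 5075 bp in control and 3625 and 4375 in 4-OHT. Tet1 and Arid1a had overlapping ranges, whereas Dnmt3b and both Myc regions were lower in both 4-OHT replicates.

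Within the regions, coverage was lower at the ends than in the middle in every library. Each region was divided into 10 parts of equal length. The outermost part at each end was covered over 69.8 and 86.5% in control and 53.4 and 56.6% in 4-OHT, and the central 2 parts over 94.4 and 98.8% in control and 80.6 and 85.7% in 4-OHT. Merging sets the ends at the outermost control edges, so low end coverage in 4-OHT follows in part from the rule. The median longest unbroken piece was 3225 and 3475 bp in control and 2950 and 3050 bp in 4-OHT, and 182 and 249 regions in control, against 144 and 154 in 4-OHT, had a piece of at least 3000 bp. A single piece was listed in 191 and 249 regions in control and in 178 and 179 in 4-OHT. In the 10 kb on either side, control replicates covered 0.590 and 0.678 Mb and 4-OHT replicates 0.644 and 0.605 Mb. The means stood at 0.985 to 1 (p = 1.00, exact two-sided permutation test, n = 2 and 2, smallest possible 0.33). The groups overlapped in these flanks. Because each region ends at a control edge, the choice partly shaped control coverage just outside it, and nothing is read from this test.

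Because both controls took part in the choice, the rule was also applied to each control replicate alone and read in the replicate left out. Regions chosen on control replicate 1 numbered 184 and covered 0.727 Mb there, 0.685 Mb in control replicate 2, and 0.656 and 0.667 Mb in 4-OHT replicates 1 and 2, or 95.9 and 97.4% of the left-out control. In 66 of them both 4-OHT values were below that control and in 67 both were above. Regions chosen on control replicate 2 numbered 251 and covered 1.000 Mb there, 0.869 Mb in control replicate 1, and 0.694 and 0.763 Mb in 4-OHT, or 79.9 and 87.8% of the left-out control, with both 4-OHT values below it in 127 and above it in 36. The 4-OHT totals were below the left-out control in both choices, by a few percent in one and by more in the other, with a single control sample in each and therefore no test.

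The same rule was also applied to the 4-OHT lists, a comparison chosen after seeing the data. It gave 268 regions, of which 172 (64.2%) overlapped one of the 295, and 175 of the 295 (59.3%) overlapped one of them. In these 268 regions 4-OHT replicates covered 1.06 and 0.985 Mb and control replicates 0.932 and 0.854 Mb, so that the control mean was 87.4% of the 4-OHT mean. Both control values lay below both 4-OHT values in 110, and all 268 were in a control list. Regions chosen in either condition therefore covered fewer bases in the other one.

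Other classes chosen from the same control lists give the scale of these values. The 174 broad distal regions with Brg1 had ratios to the control mean of 0.687 and 0.791 in the 4-OHT replicates, and both 4-OHT values below control in 60.9%, beside 0.784 and 0.840 and 45.8% for the 295. Unbound distal regions from 1500 to under 3000 bp wide (2027 regions) had 0.634 and 0.666, with 11.8% in no 4-OHT list, and narrower ones (10534 regions) 0.543 and 0.526, with 38.7% in none. Unbound promoter regions of at least 3000 bp (739 regions) had 0.966 and 0.974. The ranges of the bound and unbound broad distal regions overlap, those of the narrower classes lie lower and that of the promoters higher. These differences were not tested, and the classes also differ in width.

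Regions without a Brg1-bound region still differed in how often single FLAG replicates listed something in them. No FLAG replicate did so in 127, a single one in 115, and FLAG replicates 1 and 2 at positions that did not overlap each other in 53. FLAG replicate 1 listed a region in 98, replicate 2 in 123 and replicate 3 in none. The median share of control bases covered in 4-OHT was 97.0%, 91.3% and 83.0% for regions with 0, 1 and 2 such replicates, and both 4-OHT values were below control in 37.8%, 48.7% and 58.5%, while median widths were 3550, 3750 and 3750 bp. Cdh11 had 2 regions of FLAG replicate 2 and Trim71, at its widest region, 4 of FLAG replicate 1, whereas Myh9 and the widest region of Gatad2a had none. The median distance to the nearest Brg1-bound region was 132 kb, against 246 kb for all unbound distal regions, and 42 regions (14.2%) had one within 10 kb, against 8.07%. Among these were regions of Smad1 (5.17 kb) and Cdh11 (8.28 kb).

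By position, 142 regions (48.1%) were intronic, 43 (14.6%) touched an exon and 110 (37.3%) were intergenic, beside 40.0%, 6.17% and 53.8% of all distal regions, and 9 overlapped an annotated non-coding gene. The median distance to a TSS was 12.4 kb, beside 18.2 kb. The 120 regions within 10 kb of a TSS had a median share of 95.7%, the 140 from 10 to 50 kb away 90.9%, and the 35 farther away 65.2%. Both 4-OHT values were below control in 39.2%, 43.6% and 77.1% of them, and in 50.7%, 61.3% and 71.1% of all distal regions at those distances. Shares below control were thus greater at long distances among the 295 regions and among distal regions in general.

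The genes linked to the regions mostly had acetylated promoters. Of 260, 209 (80.4%) had H3K27ac within 2.5 kb of a TSS in both controls, beside 47.6% of all protein-coding genes, 37 (14.2%) had H3K27me3 in at least 2 of 3 controls, beside 14.1%, and 10 (3.85%) had Suz12 in both, beside 6.08%. These windows do not overlap the 295 regions. Control replicates covered 549589 and 565507 bp of them with H3K27ac and 4-OHT replicates 548475 and 526749 bp, so that the means stood at 0.964 to 1 (p = 0.33, exact two-sided permutation test, n = 2 and 2, the smallest possible). At all protein-coding genes control replicates covered 17046016 and 16695101 bp and 4-OHT replicates 18941105 and 17979811 bp, a ratio of 1.09. The ratio at the linked genes was 1.01 when any FLAG replicate counted as binding and 1.01 by number of genes, so its direction depended on the processing. In the main setting the value of 4-OHT replicate 1 was closer to control replicate 1 than the controls were to each other.

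H3K27me3 covered 35368, 62545 and 61673 bp of the linked genes' promoter windows in control and 24995, 53079 and 50388 in 4-OHT, a ratio of 0.805 (p = 0.500, exact two-sided permutation test, n = 3 and 3, smallest possible 0.1), beside 0.750 at all protein-coding genes. It was lower in 4-OHT in each same-numbered pair. Suz12 covered 16316 and 21741 bp there in control and 22925 and 39060 in 4-OHT, a ratio of 1.63 (p = 0.33, exact two-sided permutation test, n = 2 and 2, the smallest possible), beside 1.15 at all protein-coding genes.

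Of the 260 linked genes, 57 (21.9%) had both 4-OHT values of promoter H3K27ac below both controls and 20.8% had both above, beside 6.45% and 21.2% of all protein-coding genes. A promoter without H3K27ac in both controls cannot fall below them, and linked genes had it more often. Among genes acetylated in both controls, the lower ones were 57 of 209 linked genes and 1444 of 10649 protein-coding genes. Single promoters are given next as examples picked after their values were seen, and most of them are lower in 4-OHT, unlike the linked genes as a set. At the Cdh11 promoter H3K27ac covered 2475 and 3525 bp in control and 50 and 575 in 4-OHT. H3K27me3 there covered 936, 1675 and 1125 bp in control and 1086, 3476 and 4476 in 4-OHT, against the direction of the sum over linked genes, and Suz12 covered none in either control and 1000 and 3375 bp in 4-OHT. At Snai1 promoter H3K27ac covered 2495 and 3870 bp in control and 945 and 1220 in 4-OHT, at Rftn1 1900 and 4525 against 550 and 975, and at Fgfr1 6053 and 6803 against 4303 and 4053. These 4 genes had less promoter acetylation in both 4-OHT replicates, and each also had a broad distal region that was lower, at Fgfr1 by as little as 25 bp. Tet1 had 1600 and 1875 bp in control and 2525 and 2675 in 4-OHT. At Cdc5l, whose nearest broad region was in no 4-OHT list, the promoter was also lower in both 4-OHT replicates, with 1575 and 1650 bp in control and 1475 and 1550 in 4-OHT.

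The repressive marks covered few bases of the regions themselves. H3K27me3 covered 775, 2700 and 3425 bp of their 1.18 Mb in control and 975, 4150 and 3800 bp in 4-OHT, in 2 or 3 regions per replicate, and the ratio of means was 1.29 (p = 0.500, exact two-sided permutation test, n = 3 and 3, smallest possible 0.1). Suz12 covered 275 bp in each control and 400 and 2050 bp in 4-OHT, which puts the means at a ratio of 4.45 (p = 0.33, exact two-sided permutation test, n = 2 and 2, the smallest possible). The H3K27me3 values of the groups overlapped, but within same-numbered pairs, treated as paired although numbers 2 and 3 are poorly told apart, 4-OHT was higher in 3 of 3 (exact two-sided paired p = 0.250, the smallest possible with 3 pairs). Those of Suz12 did not overlap. Per Mb, H3K27me3 covered 657, 2290 and 2904 bp of the regions in control, beside 367, 1400 and 3099 bp of bound broad distal regions and 494, 1012 and 937 bp of unbound distal regions 1500 to under 3000 bp wide. The Suz12 ratio was also above 1 in those classes, at 1.71 and 2.83. The H3K27me3 ratio fell on the other side of 1 without control replicate 1 of H3K27me3 (0.971) and in the regions chosen without control replicate 1 or 2 of H3K27ac (0.908 and 0.105), and was also below 1 at 1 kb from a TSS (0.767), with protein-coding TSSs (0.871) and by number of regions (0.875). The Suz12 ratio was 0.750 by number of regions, with 3 and 1 regions in control and 1 and 2 in 4-OHT, 1.45 without 4-OHT replicate 2, 7.45 without 4-OHT replicate 1 and 2.49 without FLAG replicate 1 or 2.

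Most of the H3K27me3 bases lay in a single region. In Gata6 it covered 400, 2125 and 2625 of 3850 bp in control and 825, 2200 and 3425 in 4-OHT, while H3K27ac covered most of the same region in each library. Near Twist1 it covered 0, 450 and 800 of 3000 bp in control and 150, 1900 and 375 in 4-OHT, and Suz12 covered 75 and 275 bp in control and 400 and 1650 in 4-OHT. The promoters of both genes also carried H3K27me3 in every replicate. Near Nrf1, a regulator of mitochondrial genes, Suz12 covered 75 and 0 bp in control and 0 and 400 in 4-OHT. Regions assigned to Gm20388 and Mid1, a microtubule-associated ubiquitin ligase, had at most 350 and 25 bp of H3K27me3 in any control replicate. Twist1 and Nrf1 together account for every Suz12 base in 4-OHT.

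Base composition was close to that of other distal regions. The median GC content was 47.9% (quartiles 45.4 and 51.1%), beside 47.2% in bound broad distal regions and 47.0% in all distal regions, and the median ratio of observed to expected CpG was 0.218, beside 0.226 and 0.202. That ratio reached 0.6, a usual limit for CpG islands, in 6 of the 295 (2.03%) and in 2.51% of all distal regions. Short motifs were then searched on both strands in the central 500 bp of each region that was at least that wide. The E-box CAGGTG, bound by Snail and Zeb repressors and by some bHLH factors, was found in 32.9% of the 295 (exact 95% binomial interval 27.5 to 38.6, counting error only), in 21.8% of bound broad regions (15.9 to 28.7) and in 29.7% of all distal regions. The ZIC motif CAGCAGG was found in 15.3% (11.3 to 19.9), beside 20.7% (14.9 to 27.5) and 22.0%, and the AP-1 motif TGANTCA in 18.6% (14.4 to 23.6), beside 18.4% and 21.7%. For these motifs the intervals of bound and unbound broad regions overlapped, and no test of the differences was made.

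The remaining motifs were searched in the same windows. SP/KLF GGGCGG was found in 15.9% of the 295 regions and 14.0% of all distal regions, SOX ACAAAGG in 14.6 and 14.9%, homeobox TAATTA in 12.9 and 13.5%, FOXH1 AATNCACA in 12.5 and 11.0%, and TCF/LEF CTTTGAT in 12.2 and 9.92%. TEAD CATTCCA was found in 8.81 and 8.62%, the GATA motif, AGATAAG, in 7.12 and 8.51%, FOX TGTTTAC in 6.44 and 7.04%, ETS CCGGAAG in 4.75 and 3.60%, T-box AGGTGTGA in 3.73 and 3.13%, and the POU octamer ATGCAAAT in 2.71 and 4.18%. The E-box can overlap the T-box motif, so the motifs are not counts of separate sites. For each of these motifs, and for the E-box and AP-1, the share among all distal regions lay within the exact interval of the 295 regions, whereas for ZIC it lay above it. The 295 are themselves among the distal regions.

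Sequence was also compared between the parts of the regions covered in all 4 libraries, 0.771 Mb, and the parts covered in both controls and in neither 4-OHT list, 0.125 Mb. GC content was 48.7% in the former and 47.7% in the latter. Per kb there were 0.953 and 0.578 E-box matches, 0.445 and 0.241 AP-1 matches, 0.439 and 0.233 SP/KLF matches, 0.440 and 0.449 ZIC matches, and 0.126 and 0.193 GATA matches. Coverage was lower toward region ends in every library, and the part of position in these densities was not tested.

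Windows of 200 bp are shown for 8 of the named regions, to let the sequence be read beside its coverage. Each is the window of its region, outside exons, with the most motif matches, from the plus strand of mm9 read 5′ to 3′, and capitals mark the matches. A match is a description and no evidence that a factor binds. In central windows of 200 bp of all distal regions at least that wide, the share with a match was 12.4% for the E-box, 9.01% for AP-1, 8.57% for ZIC, 6.15% for SOX, 5.10% for homeobox, 3.66% for TCF/LEF, 3.57% for GATA, 3.16% for TEAD and 2.94% for FOX. The first pair comes from the widest regions and was covered over all 200 bp in each of the 4 H3K27ac lists. In Myh9, chr15:77629818-77630017, 1 ZIC, 3 E-box and 1 AP-1 match are marked, and near Mcl1, chr3:95470158-95470357, 1 GATA and 2 AP-1 matches.
Myh9: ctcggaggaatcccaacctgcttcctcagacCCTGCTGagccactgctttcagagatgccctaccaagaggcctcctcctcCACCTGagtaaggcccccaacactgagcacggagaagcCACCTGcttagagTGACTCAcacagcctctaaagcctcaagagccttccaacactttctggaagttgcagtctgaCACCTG
Mcl1: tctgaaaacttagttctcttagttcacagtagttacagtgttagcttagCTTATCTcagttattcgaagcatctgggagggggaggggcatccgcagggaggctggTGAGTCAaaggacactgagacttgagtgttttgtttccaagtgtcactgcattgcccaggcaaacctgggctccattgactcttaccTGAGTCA

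The next windows were chosen from regions with low 4-OHT coverage, and neither 4-OHT replicate covered any base of these windows, although the Cdh11 region as a whole had a share of 32.5%. The intergenic window assigned to Cdc5l, chr17:45364591-45364790, was covered over 200 bp in both controls and holds 1 GATA, 1 SOX and 1 ZIC match. That near Slc6a6, chr6:91609443-91609642, was covered over 83 bp in control replicate 1 and 200 bp in replicate 2 and holds 2 ZIC matches. The intergenic window assigned to Zfp703, chr8:27915994-27916193, was covered over 200 bp in both controls and holds 1 homeobox and 2 ZIC matches. The intronic window in Cdh11, chr8:105231116-105231315, was likewise covered in both controls and holds 1 SOX, 1 TCF/LEF and 1 FOX match.
Cdc5l: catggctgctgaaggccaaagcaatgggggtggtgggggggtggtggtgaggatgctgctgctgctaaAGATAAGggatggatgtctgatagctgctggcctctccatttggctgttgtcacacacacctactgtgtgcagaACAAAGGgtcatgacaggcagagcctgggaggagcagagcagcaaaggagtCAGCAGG
Slc6a6: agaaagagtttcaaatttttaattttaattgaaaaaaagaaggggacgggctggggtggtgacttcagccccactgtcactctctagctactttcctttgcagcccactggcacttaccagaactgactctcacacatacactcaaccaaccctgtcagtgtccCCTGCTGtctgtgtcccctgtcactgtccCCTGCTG
Zfp703: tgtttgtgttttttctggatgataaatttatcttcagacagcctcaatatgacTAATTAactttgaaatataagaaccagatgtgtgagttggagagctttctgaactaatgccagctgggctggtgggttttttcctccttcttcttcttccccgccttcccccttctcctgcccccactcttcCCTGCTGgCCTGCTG
Cdh11: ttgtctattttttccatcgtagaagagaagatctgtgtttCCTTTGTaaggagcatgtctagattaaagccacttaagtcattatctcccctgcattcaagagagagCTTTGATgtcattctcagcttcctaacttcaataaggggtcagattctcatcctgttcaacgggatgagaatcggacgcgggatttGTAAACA

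The last pair shows regions where the replicates of a group differed. The intronic window in Gab1, chr8:83376159-83376358, was covered over 200 bp in control replicate 1 and in both 4-OHT replicates and over none in control replicate 2, and holds 2 TEAD matches and 1 SOX match. The intronic window in Arid1a, chr4:133284463-133284662, was covered over 200 bp in both controls and in 4-OHT replicate 2 and over none in 4-OHT replicate 1, and holds 1 TCF/LEF and 1 E-box match.
Gab1: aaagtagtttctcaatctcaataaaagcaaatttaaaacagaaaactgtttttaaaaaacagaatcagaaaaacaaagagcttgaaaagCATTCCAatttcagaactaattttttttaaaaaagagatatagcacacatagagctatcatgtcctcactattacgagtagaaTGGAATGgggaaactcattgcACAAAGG
Arid1a: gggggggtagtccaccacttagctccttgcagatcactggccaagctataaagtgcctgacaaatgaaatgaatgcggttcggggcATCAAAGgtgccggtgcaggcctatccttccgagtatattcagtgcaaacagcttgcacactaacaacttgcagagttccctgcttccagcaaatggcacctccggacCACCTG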

How the data were processed

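ChIP-seq was done by the authors on 28 samples, of which 11 are inputs that served as background when regions were called. The deposited files are 17 lists of enriched regions, 1 per replicate, whose only unit is genomic position. Per the labels, FLAG regions passed a p-value of 1e-06 and were at least 2-fold above input, and the lists of other marks are named for a threshold of 1e-12. The study describes a Poissonian model with input correction. The submitters' processing notes name Bowtie and mm9, with no version given in the sources used here. Depth is unknown, and the number and length of regions stand in for it.

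Lists were merged and members chosen as the report states, with 86879 TSSs and 22380 protein-coding genes of the GENCODE annotation of mm9. A region was linked to the protein-coding gene it overlapped (nearest TSS if several) or else to the nearest. Covered bases were summed per region and replicate. Totals other than H3K27ac within the regions were compared by two-sided exact permutation tests over samples, and the choice partly shaped those of the flanks. Members and gene lists were chosen with earlier results of these data known. Regions named are the 10 widest, those in no 4-OHT list, the 5 lowest and 5 highest by share, up to 15 widest linked to listed genes, those at the width threshold, 5 genes with the most regions and 5 regions with the most repressive mark. Other list genes, such as Pmepa1, Tcf7l1, Hes1, Dnmt3b and Myc, were added after their values were seen, as was the choice of 8 regions shown as sequence. Windows of 200 bp were limited to sequence outside exons. Some named regions are not reported here.

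As a check on pairing, each replicate's deviations from its group mean were correlated over regions between same-numbered control and 4-OHT samples. For H3K27me3 r was 0.932, 0.875 and 0.796 for numbers 1, 2 and 3, and these were treated as paired. Different numbers also correlated, at 0.760 for control 3 with 4-OHT 2 and 0.692 for control 2 with 4-OHT 3, so the lists set number 1 apart but hardly separate 2 from 3. Alternatives were other widths, TSS distances and annotations, FLAG rules, joined regions, equal numbers of regions per list of a histone mark or Suz12, a count of regions in place of bases, the replicate block and each replicate left out. The interval functions were tested on simulated lists. Python 3.11.15, NumPy 2.4.6, SciPy 1.17.1 and pysam 0.24.0 were used.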

Additional observations from a re-analysis of the deposited data

How the results depend on the processing

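Of 155 alternatives, 113 left the result unchanged by its own criterion, 33 moved it and 9 put a ratio on the other side of 1, and the cause was not tested. A count had to stay within 1.5 times its value, and the H3K27ac ratio or left-out share within its spread between 4-OHT replicates. For the H3K27me3, Suz12 and promoter ratios the criterion was only the side of 1. Their size could therefore change, for Suz12 from 1.45 to 7.45. The number of regions was 573 at a width of 2500 bp, 113 at 4000 bp, 173 by width covered in both controls, 127 when any FLAG replicate counted as binding, 622 with regions joined over gaps up to 1 kb, and 184 to 444 with 1 replicate left out. In that order the number in no 4-OHT list was 18, 0, 1, 1 and 23, and 0 to 12 with 1 replicate left out, and 4 with equal numbers of regions per list. Those with both 4-OHT values below control numbered 295, 46, 69, 48 and 322, and 99 to 225.

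The H3K27ac ratio was 0.873 by width covered in both controls, 0.860 with any FLAG replicate, 0.735 with joined regions and 0.729 to 0.911 with 1 replicate left out. With the rule applied to the 4-OHT lists, chosen after seeing the data, control over 4-OHT was 0.874 and 0 regions were in no control list. Relative to the left-out control, 4-OHT covered 90.2% as a mean over both choices, 94.6% at 4000 bp, 94.9% with any FLAG replicate and 83.6% with joined regions.

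The H3K27me3 ratio was 0.767 at 1 kb from a TSS, 0.871 with protein-coding TSSs, 0.875 by number of regions and 0.105 to 1.73 with 1 replicate left out. The Suz12 ratio was 0.750 by number of regions. The promoter H3K27ac ratio was 1.01 with any FLAG replicate and 1.01 by number of genes. Neither H3K27me3 nor Suz12 had a ratio at 4000 bp or by width covered in both controls, where a control value was 0. With the replicate block the ratios were 1.29 for H3K27me3, 4.45 for Suz12 and 0.964 for promoter H3K27ac, with an exact paired p of 0.250 (the smallest possible with 3 pairs), 0.500 and 0.500 (the smallest with 2), so it changed no call. For H3K27ac and Suz12, same-numbered control and 4-OHT samples correlated at 0.418 and 0.444. With 2 replicates per group, different numbers give the same values with the opposite sign, so this check cannot settle the pairing. The study describes comparing control and 4-OHT cultures within a single differentiation. Pairs by number were used for these marks only in the replicate block. Without read counts per region, a narrower region cannot be told from a shallower library.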

Other observations

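The regions were unevenly spread over chromosomes. Chromosome 8 held 36 (12.2%), beside 7.66% of all distal regions, and chromosome 12 held 31 (10.5%), beside 5.96%. Those on chromosome 8 included Zfhx3, Gatad2a, Fgfr1, Smad1, Cdh11, Gab1, Arhgef18, Sall1 and Zfp703, and those on chromosome 12 included Ppp4r4, Sipa1l1, Adck1 and Twist1. Distal regions were also wider there, with a median of 850 bp on chromosome 8 and 875 bp on chromosome 12, beside 700 bp in all. Of promoter regions, 9.89% and 12.5% were at least 3000 bp wide on these chromosomes, beside 6.84% in all. A larger share of wide regions on both chromosomes was thus found at promoters as well, and the reason was not tested. In the other direction, chromosome 14 held 3 of the 295 regions (1.02%), beside 3.88% of all distal regions, and chromosome 5 held 6 (2.03%), beside 5.22%.

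The X chromosome held 5 of the regions (1.69%), among them that of Mid1, beside 1.70% of all distal regions. It carried 0.324% and 0.230% of the regions of FLAG replicates 1 and 2, beside 2.30% and 2.38% of those of the control H3K27ac replicates.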
